A study of Mus musculus with 30 samples.

Results

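The genes described here are 34 genes of the amino acid response and of the unfolded protein response, out of 78334 gene identifiers in the count table. They were chosen by name, as a list, and found by matching the mouse Ensembl identifiers of the table to gene symbols. By role they form an amino acid response arm of 18 genes (Atf4, Ddit3, Trib3 and Chac1, 8 genes of amino acid and one-carbon synthesis, 3 amino acid transporter genes and 3 tRNA synthetase genes) and an endoplasmic reticulum arm of 16 genes (12 chaperones and folding enzymes, 3 genes of protein degradation and the transcription factor gene Xbp1). The symbol Ddit3 belongs to 2 identifiers of the table, and ENSMUSG00000025408.16 was used because the other held 3.82 counts over all libraries.

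Cells recognise a shortage of amino acids through GCN2, and misfolded protein in the endoplasmic reticulum through PERK, and both kinases phosphorylate the translation factor eIF2. Bulk translation then slows while Atf4 mRNA is translated more, and the ATF4 protein activates genes that make, import and charge amino acids. Misfolded protein in the endoplasmic reticulum also activates IRE1, which splices Xbp1 mRNA, and ATF6, which is cleaved, and both raise the genes of chaperones and of disposal of misfolded protein. Dividing and matrix-secreting smooth muscle cells have a high demand for amino acids and for folding of secreted protein. The counts measure mRNA per gene and show neither translation of Atf4, nor splicing of Xbp1, nor cleavage of ATF6.

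RNA was sequenced from 30 libraries of smooth muscle cells from mouse aorta kept in culture, as labelled, in 9 groups from 2 sequencing runs, and the growth protocol speaks of mouse and of rat cells. All cells were kept for 48 h without serum and transfected for at least 24 h. The question was what changes when the long noncoding RNA CASC15 is lowered with GapmeR antisense oligonucleotides, which direct RNase H to the RNA they bind, or raised from a plasmid, and when the cells are stimulated. The labels do not say whether libraries came from separate animals or cultures, so p-values measure the spread between these libraries.

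Run 2 held untreated cells only. Its groups were a knockdown control GapmeR (2 libraries, batches P17 and P18), a knockdown of total CASC15 (2 libraries, P17 and P18), an overexpression control (3 libraries, P17 to P19) and an overexpression of total CASC15 (3 libraries, P17 to P19). Run 3 held 4 libraries per group, 1 for each of the labelled batches P16 to P19. Its groups were knockdown control cells untreated, with angiotensin II (10 ng/ml) or with PDGF-BB (10 to 30 ng/ml), and cells in which long CASC15 was knocked down, untreated or with angiotensin II. Treatments lasted 24 h. The labels do not define total and long CASC15, and the titles number the target from CASC15 to CASC22 across replicates, so the group was taken from the library names. Libraries held 15771490 to 30362047 counts, and all 34 genes passed the filter on low counts in both runs, with 14 to 33139 counts per library.

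The CASC15 gene was read from 2610307P16Rik, which no table used here pairs with that name. In the libraries labelled total CASC15 knockdown it stood at 9.01 ± 1.02 counts per 1000000 counts (CPM; SD, n = 2) against 7.02 ± 0.913 in their control (n = 2), so these are called the libraries labelled total CASC15 knockdown throughout, and no direction is drawn from that label. It was 716 ± 174 CPM with overexpression and 6.42 ± 2.34 in its control (n = 3 each). With long CASC15 knockdown it was 2.87 ± 0.561 CPM untreated and 3.04 ± 0.603 with angiotensin II, against 5.52 ± 0.53 and 5.27 ± 0.63 in the matching controls (n = 4 each). In control cells with PDGF-BB it was 3.61 ± 0.831 CPM (n = 4), lower than in untreated controls in each of the 4 batches and without overlap. The 10 smooth muscle markers summed to 710 to 1270 CPM per library, mostly from Cald1 and Acta2, while Tagln stood at or below 3.45 CPM, Myh11 at or below 6.67 CPM and Cnn1 at or below 5 counts. Endothelial markers summed to at most 3.94 CPM, with Tie1 at 0. The sum of the 6 markers of adventitial fibroblasts came from Ly6a (up to 616 CPM), Pi16 and Pdgfra, while Dpt, Lum and Cd34 stood at or below 5.17 CPM and at 0 in some libraries. This sum differed between groups and is given, with those of its leading genes that differ, beside each comparison of groups in which genes were called. In bulk RNA, fewer cells of a type and less RNA per cell cannot be told apart.

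Promoter sequences were searched for elements bound by regulators of these pathways, and 12 of the 34 genes held at least 1. The genes were chosen by name as members of the same pathways, so the shares below are not independent of that choice. They describe the list and count genes for the list but promoters for the background. RefSeq promoters (GRCm38.p6) were matched by symbol for 30 of the 34 genes, and the 250 bases before each start were searched on both strands. The endoplasmic reticulum stress element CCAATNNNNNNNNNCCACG, the sequence that ATF6 binds together with NF-Y, was present in 6 of 14 genes of the endoplasmic reticulum arm (42.9%), in 0 of 16 genes of the amino acid response arm and in 37 of 32851 promoters overall (0.113%). The 6 windows below carry it in capitals, in either orientation, written along the strand of the gene. These 6 genes rose with PDGF-BB and fell with long CASC15 knockdown in untreated cells. Pdia3 and Pdia4, where it was not found, did the same, so the shared direction is not particular to the element.
Hspa5, chr2:34772009-34772059, plus strand: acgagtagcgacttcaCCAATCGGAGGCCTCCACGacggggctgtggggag
Hsp90b1, chr10:86705517-86705672, minus strand: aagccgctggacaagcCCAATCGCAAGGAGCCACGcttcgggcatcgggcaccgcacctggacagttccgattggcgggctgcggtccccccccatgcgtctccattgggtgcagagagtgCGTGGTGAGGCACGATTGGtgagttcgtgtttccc
Calr, chr8:84847059-84847109, minus strand: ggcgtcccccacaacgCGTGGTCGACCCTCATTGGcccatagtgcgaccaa
Pdia6, chr12:17266475-17266525, plus strand: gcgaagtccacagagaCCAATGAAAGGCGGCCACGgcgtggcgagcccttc
Dnajc3, chr14:118937811-118937861, plus strand: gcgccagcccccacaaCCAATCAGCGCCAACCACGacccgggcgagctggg
Creld2, chr15:88819504-88819554, plus strand: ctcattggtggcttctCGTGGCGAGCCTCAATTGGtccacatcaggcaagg

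The C/EBP-ATF response element TGATGNAA, which ATF4 binds as a dimer with a C/EBP protein, was present in 5 of 16 genes of the amino acid response arm (31.2%) and in 1134 promoters overall (3.45%). These 5 windows carry it in capitals and are shown because Asns and Chac1 were among the genes that differed most between batches. Herpud1 holds this element and the related element ATTGGNCCACG, which was found in 10 promoters overall (0.0304%). The XBP1 element TGACGTGG was found in 0 of these genes and in 185 promoters overall (0.563%). A match is a description of letters in a window and no evidence of binding.
Asns, chr6:7693210-7693248, minus strand: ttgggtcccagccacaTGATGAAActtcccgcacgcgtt
Chac1, chr2:119351033-119351072, plus strand: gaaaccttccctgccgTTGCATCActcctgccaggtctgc
Pycr1, chr11:120643828-120643867, minus strand: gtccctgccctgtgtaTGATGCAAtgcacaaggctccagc
Aars, chr8:111033714-111033753, plus strand: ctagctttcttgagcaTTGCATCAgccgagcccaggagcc
Gars, chr6:55037955-55037994, plus strand: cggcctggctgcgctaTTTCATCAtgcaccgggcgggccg
Herpud1, chr8:94386301-94386403, plus strand: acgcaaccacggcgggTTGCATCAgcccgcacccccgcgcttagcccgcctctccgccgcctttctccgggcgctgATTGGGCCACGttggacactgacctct

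Levels were first compared between genes in the untreated control libraries of run 3, as CPM per kb of exon. The most abundant were chaperones of the endoplasmic reticulum. Hsp90b1, the HSP90 of this compartment, stood at 221 ± 14.2 CPM per kb (SD, n = 4), the disulfide isomerase gene Pdia3 at 192 ± 16.7 and the lectin chaperone gene Calr at 182 ± 9.7. Hspa5, which encodes the chaperone BiP that holds the stress sensors inactive, stood at 96.1 ± 4.21 CPM per kb, and Atf4 itself at 49.6 ± 5.61. Among the stress-induced genes, Ddit3, which encodes the transcription factor CHOP, stood near the middle of the order at 14.7 CPM per kb, and lower came Trib3, a pseudokinase that inhibits ATF4, at 4.32 and Chac1, an enzyme that degrades glutathione, at 1.34. Pycr1, of proline synthesis, was lowest at 1.06 ± 0.202 CPM per kb. Along this order, 24 of 33 neighbouring pairs of genes had overlapping ranges over the 4 libraries.

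**Figure D1:**
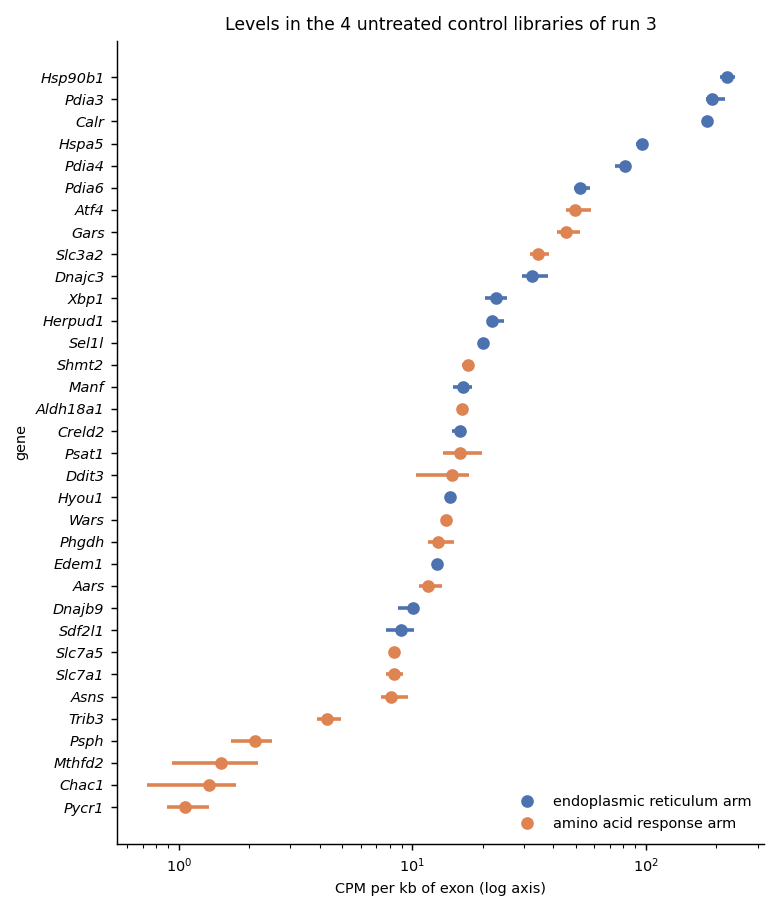
Level of each of the 34 genes in the 4 untreated control libraries of run 3, in CPM per kb of exon on a log axis; points are means, lines run from the lowest to the highest library, and colours mark the arm. Chaperones of the endoplasmic reticulum take the top of the order, from Hsp90b1 at 221 CPM per kb, and Pycr1 at 1.06 CPM per kb the bottom.

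PDGF-BB, a growth factor for smooth muscle cells, raised most of the list. Against untreated control cells, 27 of 34 genes rose, 1 fell and 6 were not called, where a call is an adjusted p under 0.05 (edgeR's quasi-likelihood test, adjusted over all genes tested by Benjamini-Hochberg). Of all 15103 genes tested, 23.6% rose and 20% fell. The median log2 fold change was 0.58 over the list and -0.02 over all genes. Both arms took part: 13 of 18 genes of the amino acid response arm and 14 of 16 of the endoplasmic reticulum arm rose. Within each of the batches P16 to P19, 31 of the 34 genes were higher with PDGF-BB. Of all genes, 48.6% had a log2 fold change above 0 in the fit without a block. Groups did not overlap for 25 of the 27 genes that rose. That count is of genes already called and was not made over all genes.

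Atf4 CPM was 108, 112, 112 and 137 in the untreated control libraries of P16 to P19, an order kept for all values of run 3 below, and 191, 182, 189 and 230 with PDGF-BB. Every PDGF-BB library was above every control library, a log2 fold change of 0.76 ± 0.104 (± SE here and below; adjusted p = 6.84e-06). Ddit3 moved the other way, from 17.8, 24.4, 30 and 28.2 CPM to 16.4, 16.5, 20.4 and 17.6. It was lower with PDGF-BB in each batch, although the groups overlapped, and fell by 0.50 on the log2 scale (SE 0.127; adjusted p = 0.0032). Trib3 and Chac1 were not called, with log2 fold changes of 0.12 and 0.26 (adjusted p = 0.528 and 0.564).

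Of the synthesis genes 7 of 8 rose, and these included the largest changes of the list. Mthfd2, a mitochondrial enzyme that feeds one-carbon units to purine synthesis, had 4.41, 3.25, 5.83 and 7.62 CPM in untreated controls and 26.5, 24.4, 25.9 and 44.4 CPM with PDGF-BB. The lowest treated library was above the highest control, and the log2 fold change of 2.51 ± 0.446 (adjusted p = 0.000208) was the largest of the 34. Psat1, an aminotransferase of serine synthesis, went from 63.8, 57.6, 64.5 and 84.7 CPM to 215, 202, 217 and 303, with no overlap and a log2 fold change of 1.79 ± 0.145 (adjusted p = 1.46e-08). Phgdh, the first enzyme of the same pathway, rose by 0.69 on the log2 scale (adjusted p = 0.00311) and Psph, the last, by 0.38 (adjusted p = 0.0189, with overlapping groups). Shmt2, which splits serine into glycine and a one-carbon unit in mitochondria, rose from 53.9 ± 2.72 to 97.6 ± 12.8 CPM (SD, n = 4; log2 fold change 0.86 ± 0.0762, adjusted p = 2.68e-08).

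Asns, which makes asparagine and is a much used readout of ATF4 activity, was the synthesis gene without a call. Its CPM was 21.7, 20.1, 20.3 and 26.2 in untreated controls and 25.4, 26.4, 30.4 and 47.8 with PDGF-BB. It was higher with PDGF-BB within each batch, with the P19 library far above the other treated libraries, and the groups overlapped. The log2 fold change was 0.56 ± 0.321 (adjusted p = 0.174). With the batch as a block it was 0.52 (adjusted p = 0.0164), and without P19 it was 0.40 (adjusted p = 0.00415).

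Slc7a5, the light chain of a transporter of large neutral amino acids, had 32.1, 31.8, 29.6 and 30 CPM in untreated controls and 70.3, 64.2, 72.2 and 94.5 with PDGF-BB. The groups lay far apart, with a log2 fold change of 1.29 ± 0.144 (adjusted p = 6.65e-07). Slc3a2, the heavy chain of that transporter, had a log2 fold change of 0.28 that was not called (adjusted p = 0.0762; 0.000158 with the batch as a block), while Slc7a1, a carrier of cationic amino acids, rose by 0.77. All 3 tRNA synthetase genes rose, Aars by 0.70, Gars by 0.59 and Wars by 0.24 on the log2 scale. Of the 28 calls with PDGF-BB, 24 held whichever of the 8 libraries was left out, while that of Herpud1 was lost in 5 of the 8 omissions, Psph in 4, Sdf2l1 in 3 and Wars in 2.

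Among chaperones and folding enzymes, 11 of 12 rose. Hspa5 CPM was 406, 383, 410 and 426 in untreated controls and 671, 697, 668 and 831 with PDGF-BB, a log2 fold change of 0.82 ± 0.0915 (adjusted p = 5.5e-07). The ranges were far apart, and P19 was the highest library of each group. Hsp90b1 rose from 892 ± 57.4 to 1610 ± 82.1 CPM (log2 fold change 0.86 ± 0.0791, adjusted p = 4.34e-08). Manf, a secreted factor that binds BiP, went from 52.7, 55.8, 60.1 and 63.5 to 113, 109, 117 and 131 CPM, the largest log2 fold change of this arm at 1.02 ± 0.133 (adjusted p = 4.68e-06). The 6 genes with the stress element printed above all rose, from 0.52 for Dnajc3, a co-chaperone that inhibits PERK, to 0.86 for Hsp90b1.

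Dnajb9, a BiP co-chaperone that represses IRE1, was the chaperone gene that did not rise. Its CPM was 27.1, 27.1, 22.2 and 26.6 in controls and 22, 22.3, 20.8 and 26.1 with PDGF-BB, a log2 fold change of -0.17 (adjusted p = 0.181). Xbp1 went from 70.5, 82.5, 76.7 and 66.6 CPM to 85.9, 97.4, 97.8 and 95.6, with no overlap and a log2 fold change of 0.35 ± 0.0714 (adjusted p = 0.000542). Of the degradation genes, Edem1, a lectin that hands glycoproteins to disposal, rose by 0.51 and Herpud1 by 0.22, while Sel1l, the scaffold of the HRD1 ligase, was at -0.01 (adjusted p = 0.885). Beside these changes, the markers of adventitial fibroblasts summed to 284 to 350 CPM with PDGF-BB (Ly6a 237 to 270) and 171 to 213 CPM in untreated controls (Ly6a 101 to 167), whereas Pdgfra stood at 1.83 to 4.11 and 7.18 to 21.1 CPM. The smooth muscle markers summed to 755 to 872 and 944 to 1170 CPM: Cald1 and Acta2 were lower in every PDGF-BB library, while Smtn (89.2 to 103 against 42.2 to 50 CPM) and Tpm2 (52.5 to 60.8 against 38.2 to 39.2 CPM) were higher in every one. Their part in the result was not tested.

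**Figure D2:**
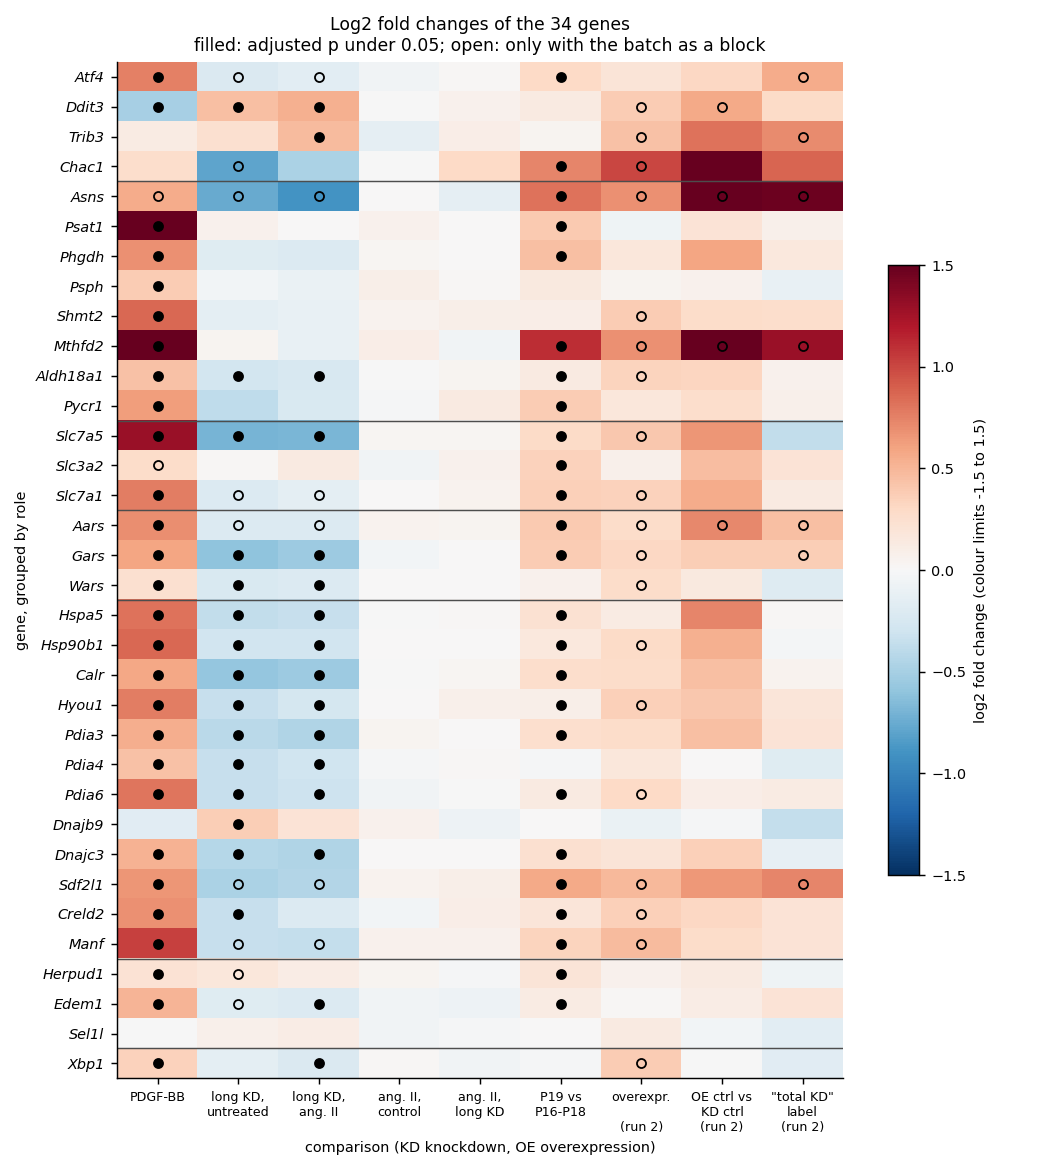
Log2 fold change of each of the 34 genes (rows, by role) in each comparison (columns), from edgeR's quasi-likelihood fit without a batch term except for the P19 column; filled circles mark calls at an adjusted p under 0.05 and open circles those made only with the batch as a block. The PDGF-BB column holds 27 genes that rose, and the long CASC15 knockdown columns hold 13 and 14 that fell.

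Other genes of these pathways, from lists that are no part of the 34, were followed in the same comparison. Of 17 further cytosolic tRNA synthetase genes, 15 rose and 0 fell. Of 31 further genes of folding and degradation in the endoplasmic reticulum, 22 rose and 2 fell. Of 23 further ATF4 targets, 11 rose and 5 fell: the cystine carrier gene Slc7a11 rose by 2.51 ± 0.417 and the mitochondrial folate enzyme gene Mthfd1l by 1.92 ± 0.101, whereas Vldlr, a lipoprotein receptor, fell by 1.38 on the log2 scale. Of 13 genes of stress sensors and eIF2 control, 6 rose and 0 fell, among them Eif2s1, the phosphorylated subunit of eIF2, by 0.64 and Atf6 by 0.54. Outside the endoplasmic reticulum, 3 of 11 cytosolic heat shock chaperones rose and 1 fell, a share close to the 23.6% of all genes that rose, and 7 of 10 mitochondrial chaperones and proteases rose and 0 fell.

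Knockdown of long CASC15 in untreated cells had the opposite direction for most of the list. Against the same untreated controls, 13 of 34 genes fell, 2 rose and 19 were not called. Of all genes tested, 12.8% fell and 12.3% rose. The median log2 fold change was -0.26 over the list and 0.02 over all genes. Among chaperones and folding enzymes 9 of 12 fell and 1 rose, and in the amino acid response arm 4 of 18 fell and 1 rose. With the batch as a block these were 11 of 12 and 9 of 18 that fell, and the difference between the groups of genes was not tested. Over the whole list 21 fell and 3 rose with the block, adding Atf4, Chac1, Asns, Slc7a1, Aars, Sdf2l1, Manf, Edem1 and Herpud1, while 20.6% of all genes fell and 20% rose. Without the P19 libraries of run 3, 23 fell and 2 rose, while 21.3% of all genes fell and 18.7% rose. Without the P19 library of this knockdown group alone (replicate 4), 23 genes of the list were called, and calls over all genes went from 3783 to 4882. This comparison and the PDGF-BB comparison share their 4 control libraries, so their directions are not independent of each other. In both comparisons 2610307P16Rik was lower than in these controls.

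Calr CPM was 501, 500, 542 and 554 in untreated controls and 315, 313, 310 and 464 with long CASC15 knockdown. Every knockdown library was below every control, and the P19 knockdown library lay far above the other 3. The log2 fold change was -0.58 ± 0.125 (adjusted p = 0.00194). Hspa5 had the same form, with 296, 293, 302 and 369 CPM against 406, 383, 410 and 426 and no overlap (log2 fold change -0.37 ± 0.0912, adjusted p = 0.00534). Pdia3 fell from 576, 568, 588 and 681 to 448, 409, 425 and 530 CPM (log2 fold change -0.41 ± 0.0932, adjusted p = 0.00266). Dnajc3 fell from 169, 154, 150 and 195 to 118, 121, 123 and 134 CPM, and here P19 did not stand apart (log2 fold change -0.43 ± 0.0887, adjusted p = 0.0013).

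The remaining chaperone genes that fell were Hsp90b1 (log2 fold change -0.29), Hyou1, a nucleotide exchange factor of BiP (-0.34), Pdia4 (-0.34), Pdia6 (-0.35) and Creld2, a secreted stress protein (-0.35). Of these, Creld2 was the one whose groups overlapped, with 21.3, 20.1, 23.1 and 22.8 CPM in controls and 16.8, 16.5, 15 and 20.3 with knockdown, and its call was lost without knockdown replicate 3 (P18; adjusted p = 0.0635). All 6 genes with the stress element fell. Manf had a log2 fold change of -0.35 that was not called (adjusted p = 0.0617), and Xbp1 one of -0.15 (adjusted p = 0.126). None of the 3 degradation genes was called without the block, with log2 fold changes of 0.17 for Herpud1, -0.18 for Edem1 and 0.08 for Sel1l. With the block Herpud1 rose and Edem1 fell.

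Against this direction, Dnajb9 and Ddit3 rose. Dnajb9 CPM was 36.8, 34.3, 32.6 and 29 with knockdown, each above the highest control library at 27.1 (log2 fold change 0.37 ± 0.102, adjusted p = 0.012). The call of Dnajb9 was lost without control replicate 3 (P18; 0.29, adjusted p = 0.0563) or without knockdown replicate 1 (P16; 0.31, adjusted p = 0.0606). Ddit3 CPM was 32.6, 33.6, 36 and 35.5 with knockdown against 17.8, 24.4, 30 and 28.2 in controls, with no overlap (log2 fold change 0.45 ± 0.125, adjusted p = 0.0106). The knockdown libraries lay close together, and most of the spread was among the controls.

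In the amino acid response arm, Slc7a5 fell from 32.1, 31.8, 29.6 and 30 CPM to 19.6, 18.5, 14.4 and 23.8 (log2 fold change -0.70 ± 0.147, adjusted p = 0.00167), with no overlap. Gars, the glycyl-tRNA synthetase gene, fell from 143, 130, 134 and 162 to 83, 87.3, 83.8 and 122 CPM (log2 fold change -0.60 ± 0.136, adjusted p = 0.00298), again without overlap and with P19 the highest of both groups. Aldh18a1, of proline synthesis, fell by 0.28 and Wars by 0.23 on the log2 scale, calls that were lost in 2 and 3 of the 8 omissions of 1 library. The other 11 calls of the 15 held in every omission, Creld2 and Dnajb9 being the exceptions given above.

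Asns CPM was 8.22, 10.5, 9.46 and 24 with knockdown and 21.7, 20.1, 20.3 and 26.2 in controls. In P16 to P18 the knockdown libraries were far below their controls, and in P19 the pair was close: within batches the log2 ratio ran from -1.4 to -0.13. The log2 fold change of -0.76 ± 0.33 was not called (adjusted p = 0.101), and with the batch as a block it was -0.85 (adjusted p = 0.00115). Without P19 it was -1.15 (adjusted p = 2.49e-08). Atf4 CPM was 95, 94.5, 94.6 and 116 against 108, 112, 112 and 137, lower in each batch with overlapping groups. Its log2 fold change of -0.22 was not called (adjusted p = 0.123; 9.36e-05 with the block).

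**Figure D3:**
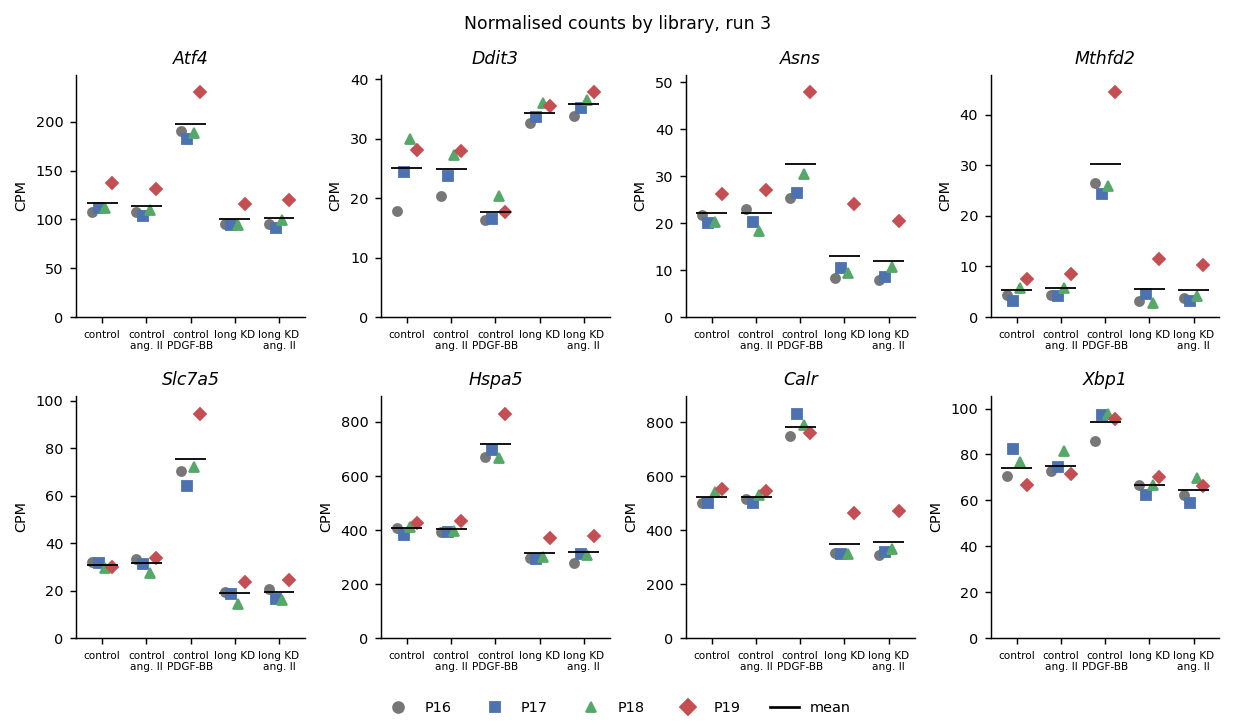
CPM of 8 of the genes in each library of run 3, by group; symbols and colours mark the batch and bars the group means. Calr, Hspa5 and Slc7a5 lie lower with long CASC15 knockdown than in controls, Ddit3 lies higher, and P19 is the highest library in each group for Atf4, Asns, Mthfd2 and Hspa5.

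The knockdown differed least from its control in P19. Of the 13 genes that fell, 12 were lower in each of the 4 batches, the exception being Aldh18a1, and for 11 the highest log2 ratio of the 4 batches was that of P19. These counts are of genes already called and were not made over all genes. As a mean of log2 CPM over its 16 genes, the endoplasmic reticulum arm differed between knockdown and control by -0.28, -0.30, -0.33 and -0.11 in P16 to P19. For the amino acid response arm the differences were -0.27, -0.21, -0.42 and -0.06. Each batch holds 1 library per group, so a difference between batches in the size of the fall was not tested.

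Under angiotensin II, a vasoconstrictor peptide that also drives smooth muscle growth, the same knockdown was compared with control cells that had the same treatment. Here 14 of 34 genes fell and 2 rose, while 13.3% of all genes fell and 13.4% rose. With the batch as a block 20 fell and 2 rose, while 20.9% of all genes fell and 20.4% rose. These libraries are separate from those of the untreated comparison, but they come from the same batches P16 to P19 and were fitted together with them. Among chaperones and folding enzymes 8 of 12 fell (10 with the block), and in the amino acid response arm 4 of 18 (8 with the block). Of the genes with the stress element, Creld2 was not called without the block, and the others fell. Calr was 514, 500, 529 and 546 CPM in controls and 307, 318, 332 and 472 with knockdown (log2 fold change -0.55, adjusted p = 0.003), with no overlap and P19 again nearest to the controls. Slc7a5 had 33.5, 31, 27.4 and 33.9 CPM in controls and 20.8, 16.6, 16 and 24.5 with knockdown (log2 fold change -0.69 ± 0.148, adjusted p = 0.00178).

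Hspa5 was 391, 392, 398 and 435 CPM in controls and 278, 313, 309 and 377 with knockdown (log2 fold change -0.34 ± 0.0913, adjusted p = 0.00901). Xbp1 fell from 72.8, 74.5, 81.5 and 71.5 to 62.4, 58.9, 69.7 and 66.3 CPM, without overlap (log2 fold change -0.22 ± 0.0719, adjusted p = 0.0264). This call was lost without control replicate 3 (P18), knockdown replicate 1 (P16) or knockdown replicate 2 (P17), with adjusted p up to 0.0984. Ddit3 rose from 20.4, 23.8, 27.3 and 27.9 to 33.9, 35.2, 36.6 and 37.8 CPM, every knockdown library above every control (log2 fold change 0.53 ± 0.125, adjusted p = 0.00376). Trib3 rose from 9.18, 7.89, 6.13 and 10.2 to 12.2, 11.7, 11.1 and 11.4 CPM (log2 fold change 0.47 ± 0.149, adjusted p = 0.0228), a call lost without replicate 2 or 3 of the controls (P17, P18) or replicate 1 or 2 of the knockdown (P16, P17), with adjusted p up to 0.09. Aldh18a1, Edem1 and Wars lost theirs in 7, 6 and 5 of the 8 omissions, and the other 11 of the 16 calls held in each. Asns, at 23.1, 20.3, 18.4 and 27.1 CPM in controls and 7.91, 8.53, 10.7 and 20.4 with knockdown, had a log2 fold change of -0.90 ± 0.333 (adjusted p = 0.0541; 0.000428 with the batch as a block). Atf4 had one of -0.16 (adjusted p = 0.271; 0.00226 with the block).

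Beside the fall of these genes, the markers of adventitial fibroblasts summed to 85.1 to 115 CPM with long CASC15 knockdown and 171 to 213 CPM in controls when untreated, and to 92.6 to 115 and 178 to 230 CPM under angiotensin II. Under angiotensin II Ly6a stood at 16.3 to 82.6 CPM with knockdown and 105 to 166 CPM in controls and Pi16 at 11.3 to 16.1 and 30.9 to 51.4 CPM, while Pdgfra, at 14.6 to 59.9 and 5.3 to 19.2 CPM, lay mostly higher with knockdown and overlapped. In untreated cells Ly6a stood at 16.4 to 83.8 CPM with knockdown and 101 to 167 CPM in controls, and Pi16 at 9.4 to 17 and 30.3 to 53.1 CPM, while Pdgfra overlapped between the groups, at 12 to 65.7 and 7.18 to 21.1 CPM. Of the smooth muscle markers in untreated cells, Smtn stood at 66.3 to 76.7 CPM with knockdown and 42.2 to 50 CPM in controls. Myh11 was also higher, at 0.265 to 1.36 and 0 to 0.102 CPM. Tpm2, at 28.9 to 32.7 and 38.2 to 39.2, and Cald1, at 565 to 655 and 663 to 855 CPM, were lower. Myocd was lower too, at 0.435 to 1.45 and 1.75 to 3.32 CPM. Under angiotensin II Smtn was again higher and Tpm2 lower in every knockdown library. Myocd was again lower as well, at 0.747 to 1.03 and 1.57 to 3.39 CPM. Their part in the result was not tested. Of the further genes of the pathways, Ern1, which encodes IRE1, rose with knockdown by 0.55 ± 0.14 untreated (adjusted p = 0.00672) and by 0.64 ± 0.141 under angiotensin II (adjusted p = 0.00246). Of 31 further genes of the endoplasmic reticulum, 8 fell and 2 rose in untreated cells (11 and 2 with the block), with Canx, a membrane lectin chaperone, down by 0.51 on the log2 scale from 823 to 579 CPM. Of 17 further tRNA synthetase genes, 5 fell and 0 rose, and with the block 11 fell and 0 rose. Further ATF4 targets were divided, with 4 of 23 that rose and 4 that fell (5 and 7 with the block). Of all genes, 12.8% fell and 12.3% rose, and with the block 20.6% and 20%. Under angiotensin II the further genes of the endoplasmic reticulum were close to balanced, with 6 that fell and 5 that rose (10 and 6 with the block). There 6 further ATF4 targets fell and 3 rose (10 and 3 with the block), and 5 further tRNA synthetase genes fell and 0 rose (11 and 0 with the block). In untreated cells the ATF4 targets that rose included Atf5, another target that is itself a transcription factor gene, at 0.62 ± 0.145, and those that fell Nupr1, a stress-induced chromatin protein, at -0.61 ± 0.114.

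For angiotensin II itself no change of these genes was called. In control cells their log2 fold changes ran from -0.14 to 0.10, with a median of 0.00, and in long CASC15 knockdown cells from -0.13 to 0.30, with a median of 0.02. By edgeR's quasi-likelihood test 0 of the 34 were called in either, 0 had an unadjusted p under 0.05, and DESeq2 called 0, and of all genes 0% were called. For the interaction of knockdown and angiotensin II, log2 values ran from -0.15 to 0.31, and 0 were called, 0 had an unadjusted p under 0.05 and DESeq2 called 0.

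**Figure D4:**
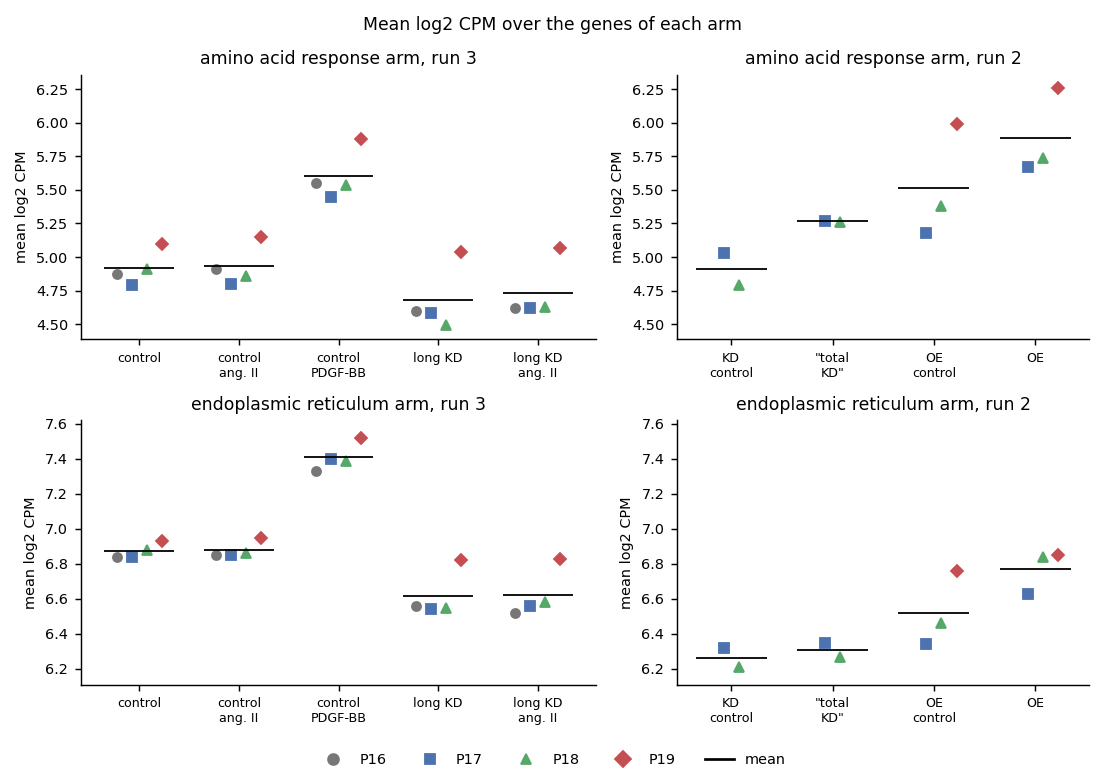
Mean log2 CPM over the 18 genes of the amino acid response arm and over the 16 genes of the endoplasmic reticulum arm, in each library by group; symbols and colours mark the batch, and the axes do not start at 0. In the amino acid response arm the run 3 means are 5.61 with PDGF-BB, 4.92 in untreated controls and 4.68 with long CASC15 knockdown, and in run 2 the P19 libraries lie above the others of their group in the amino acid response arm.

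The labelled batch was itself associated with these genes. In a fit of run 3 with group and batch as terms, 25 of 34 genes rose in P19 against the mean of P16 to P18 and 0 fell, while 24.1% of all genes rose and 22.2% fell. The median was 0.24 over the list and -0.00 over all genes. Of all genes, 49.9% had a difference above 0. In 16 of the 34 genes, P19 was the highest library of its group in 5 of 5 groups, a count that was not made over all genes. Mthfd2 had the largest difference, 1.11 ± 0.137 on the log2 scale (adjusted p = 2.86e-06): with long CASC15 knockdown it had 3.22, 4.62, 2.72 and 11.4 CPM in P16 to P19. The P19 library was above every other library of every group but those with PDGF-BB.

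Asns rose in P19 by 0.81 ± 0.121 (adjusted p = 5.36e-05), Chac1 by 0.73 ± 0.182 (adjusted p = 0.00189) and Sdf2l1, a co-factor of BiP, by 0.57 ± 0.102 (adjusted p = 6.64e-05). Atf4 rose by 0.30 ± 0.0289 (adjusted p = 7.75e-09) and Hspa5 by 0.23 (adjusted p = 8.74e-06). Ddit3 and Xbp1 were not called, with differences of 0.13 (adjusted p = 0.0862) and -0.02 (adjusted p = 0.765). The amino acid response arm had a median of 0.35 and the endoplasmic reticulum arm one of 0.17. All 18 values of the amino acid response arm were above 0, and 13 were called, among them Aars at 0.39 and Gars at 0.38. Of the 25 calls, 19 held whichever of the 20 libraries was left out, and those lost in 1 to 5 omissions were Aldh18a1, Creld2, Edem1, Hyou1, Pdia6 and Pycr1.

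In run 2, overexpression of total CASC15 was compared with its control. By edgeR's quasi-likelihood test without a block 0 of 34 genes were called, while 1.09% of all genes rose and 0.554% fell. An unadjusted p under 0.05 was found for 7 of the 34, and DESeq2 called 1. The list had a median log2 fold change of 0.29 and all genes one of 0.00. Of the 34 values 32 were above 0, against 50.1% of all genes. With the batch as a block, 19 genes rose and 0 fell, while 9.4% of all genes rose and 8.33% fell. Of these 19, 12 were in the amino acid response arm and 7 in the endoplasmic reticulum arm. Beside Atf4, Ddit3, Asns, Hspa5 and Xbp1, which are named in every comparison, the genes of run 2 named below were chosen from the calls of the blocked fit, after its values were seen.

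Xbp1 CPM was 55.7, 54.5 and 59.9 in the overexpression control and 68.9, 72.3 and 80.5 with overexpression, in the order P17 to P19. Every overexpression library was above every control, and with the block the log2 fold change was 0.38 ± 0.0771 (adjusted p = 0.00671; 0.112 without the block). Ddit3 had 68.1, 55.8 and 69 CPM in controls and 82.1, 86.8 and 81.4 with overexpression, also without overlap (0.39, adjusted p = 0.0274 with the block). Manf had 29.2, 34.9 and 51.1 CPM against 46.9, 48.7 and 65.1 (0.50, adjusted p = 0.00552 with the block). It was higher with overexpression in each batch, and the groups overlapped, the P19 control lying above the P17 and P18 overexpression libraries.

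Asns had 17.4, 20.6 and 64.1 CPM in controls and 36.7, 40.3 and 86.3 with overexpression, and Mthfd2 7.16, 10.8 and 22.9 against 17.6, 17.3 and 31.1 CPM. In both genes the P19 library of each group was far above the others, and the P19 control exceeded the P17 and P18 overexpression libraries. The blocked log2 fold changes were 0.81 (adjusted p = 0.0198) for Asns and 0.78 (adjusted p = 0.00935) for Mthfd2. Chac1, at 1.4, 3.3 and 10.3 CPM in controls and 6.84, 7.78 and 15.1 with overexpression, had one of 1.24 (adjusted p = 0.0196). Slc7a5, at 62.2, 71.9 and 117 CPM against 96.8, 95.9 and 138, had one of 0.43 (adjusted p = 0.0408).

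Atf4 was at 159, 145 and 192 CPM in controls and 171, 178 and 219 with overexpression, with a blocked log2 fold change of 0.20 (adjusted p = 0.0918). Hspa5 was at 263, 285 and 453 CPM in controls and 295, 357 and 436 with overexpression, lower in P19 and higher in P17 and P18 (blocked 0.15, adjusted p = 0.381). Leaving out the P19 control library, replicate 3 of its group, moved the unblocked count from 0 to 6 genes, while calls over all genes went from 253 to 867. Without P19 in either group it was 5, with 5.57% of all genes called, and 22 with the block, with 17.1% called. Markers of adventitial fibroblasts summed to 361 to 674 CPM with overexpression and 67.3 to 312 CPM in its control, mostly from Ly6a at 306 to 616 and 21.9 to 296 CPM. The other 5 fibroblast markers overlapped between these groups. Of the smooth muscle markers, Tagln (1.35 to 1.38 against 1.53 to 3.14 CPM) and Myh11 (0.179 to 0.25 against 0.34 to 0.766 CPM) were lower with overexpression without overlap. Their part in the result was not tested.

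**Figure D5:**
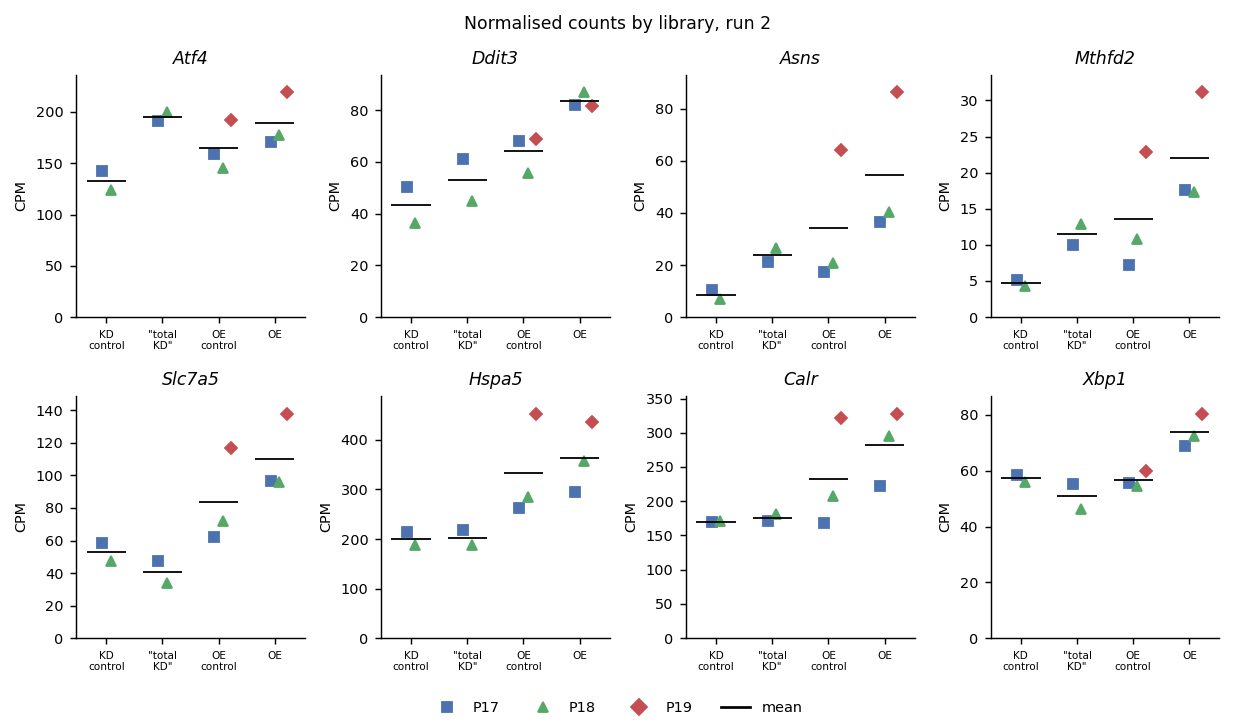
CPM of 8 of the genes in each library of run 2, by group; symbols and colours mark the batch and bars the group means. Xbp1 and Ddit3 lie higher in each overexpression library than in each overexpression control library, whereas for Asns and Mthfd2 the P19 control library lies above the P17 and P18 overexpression libraries.

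In the libraries labelled total CASC15 knockdown, 0 of 34 genes were called against their control by edgeR's quasi-likelihood test, while 1.5% of all genes rose and 0.56% fell. An unadjusted p under 0.05 was found for 4 of the 34, and DESeq2 called 0. The median log2 fold change was 0.15 over the list and 0.01 over all genes. With the batch as a block 7 rose and 0 fell, while 8.76% of all genes rose and 5.63% fell. Of the 7, 6 were in the amino acid response arm: Atf4, Trib3, Asns, Mthfd2, Aars and Gars. The other was Sdf2l1.

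Asns had 10.3 and 6.82 CPM in the P17 and P18 controls and 21 and 26.6 in the labelled knockdown libraries, Mthfd2 5.08 and 4.25 against 10 and 12.9 CPM, and Atf4 142 and 124 against 191 and 200 CPM. None of these groups overlapped. The blocked log2 fold changes were 1.46 ± 0.243 for Asns (adjusted p = 0.00632; 0.398 without the block), 1.28 ± 0.223 for Mthfd2 (adjusted p = 0.00362; 0.311 without) and 0.56 ± 0.0913 for Atf4 (adjusted p = 0.0022; 0.15 without). Hspa5, at 214 and 187 CPM against 218 and 188, had an unblocked log2 fold change of 0.02, Xbp1 one of -0.17 and Ddit3 one of 0.29, and these 3 were not called. Markers of leukocytes, mainly Cd68 and Csf1r with Ptprc at 0, summed to 17.3 to 21.2 CPM in the labelled knockdown libraries and 0.668 to 0.84 CPM in their control. Other markers also did not overlap between the groups. Among those higher were Ly6a at 23.3 to 46.3 against 5.21 to 13 CPM and Smtn at 78 to 88.1 against 59 to 72.6. Myh11, at 4.31 to 6.67 against 0.891 to 1.09, and Des, at 1.96 to 2.33 against 0.267 to 0.346 CPM, were higher too. Among those lower were Pdgfra at 16.4 to 19.3 against 35.5 to 36.1 CPM and Lum at 0.627 to 1.35 against 2.62 to 3.74. Tpm2, at 44.6 to 49.2 against 55.4 to 55.9 CPM, was also lower. The adventitial fibroblast sum was 67.3 to 98.5 against 61.1 to 75.5 CPM. Their part in the result was not tested.

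The overexpression control of run 2 was also compared with the knockdown control GapmeR. Without a block 0 of 34 genes were called by edgeR's quasi-likelihood test, while 1.15% of all genes rose and 0.0261% fell, with 11 of the 34 at an unadjusted p under 0.05 and 2 called by DESeq2. The median log2 fold change was 0.37 over the list and 0.00 over all genes. Of the 34 values 31 were above 0, against 50.6% of all genes. With the batch as a block the median was 0.21, and 4 genes rose and 0 fell, while 2.36% of all genes rose and 0.625% fell. These were Ddit3 by 0.56, Asns by 1.25 ± 0.238 (adjusted p = 0.0351), Mthfd2 by 1.03 and Aars by 0.46. The knockdown control has no P19 library, and Asns stood at 17.4, 20.6 and 64.1 CPM in the overexpression control and 10.3 and 6.82 CPM in the knockdown control. Eif2ak2, the interferon-induced kinase of eIF2 that binds double-stranded RNA, stood at 230.0 CPM against 42.3 CPM and rose by 2.44 ± 0.22 (adjusted p = 0.000409 without the block). Markers of adventitial fibroblasts summed to 67.3 to 312 CPM in the overexpression control and 61.1 to 75.5 CPM in the knockdown control (Ly6a 21.9 to 296 and 5.21 to 13). Pdgfra, at 7.94 to 30.8 against 35.5 to 36.1 CPM, and Pi16, at 6.69 to 16 against 16.1 to 23.1 CPM, were lower in the overexpression control without overlap. Smooth muscle markers summed to 743 to 1270 CPM and 739 CPM, with Acta2 at 126 to 441 and 111 to 118 CPM. Myh11 went the other way without overlap, at 0.34 to 0.766 and 0.891 to 1.09 CPM. Their part in the result was not tested. This comparison shares its libraries with the other comparisons of run 2.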

How the data were processed

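Per the labels and the submitters' processing notes, the authors deposited RSEM expected counts per gene, one column per library, unscaled; the notes name STAR 2.7.11b, RSEM 1.3.1 and the builds GRCm39 and mm10, with no role given to either build. Strandedness is not given in the sources used here. RSEM shares reads that map to several genes, so counts of near-identical genes are estimates. A GENCODE mouse annotation gave symbols to 51486 of 78334 identifiers, which held 98.7% of counts, and exon lengths.

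Expected counts were rounded to whole numbers and fitted per run with all groups of that run in edgeR 4.0.16 (R 4.3.3, limma 3.58.1): TMM scaling, filterByExpr (minimum count 10, minimum total 15; 15350 genes kept in run 2 and 15103 in run 3), robust quasi-likelihood fits and Benjamini-Hochberg adjustment over all genes kept, with a call at an adjusted p under 0.05. Biological coefficients of variation were 0.232 and 0.148. CPM were computed with TMM library sizes, and ± is the SD over libraries beside means and the standard error beside log2 fold changes. Library totals of run 2 ran from 18007199 to 21881959.

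The labels give a batch that runs with the replicate number. Deviations from group means correlated across genes by 0.122 to 0.423 on average for libraries of the same batch in the 2 groups of a comparison and by -0.046 to -0.203 for others, so the batch pairs libraries, and the fit with it as a block is given beside results whose call it changes or whose count it moves by more than 1.5 times. The comparison of P19 with P16 to P18 comes from that blocked fit.

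Atf4, Ddit3, Asns, Hspa5 and Xbp1 were named in every comparison with calls, with up to 8 called genes with the largest rise and 8 with the largest fall, and up to 3 genes per further list and direction; other genes named were chosen after their values were seen. The 34 genes and all lists were chosen with earlier results of these data known. Alternatives were other scaling, no filter, a filter at a mean of 1 CPM, the block, DESeq2 1.42.0, a minimum absolute log2 fold change of 1, only the groups compared, and each library left out; leaving out P19 was added after seeing the data. In simulated data with 200 changed genes, 2-fold changes were recovered for 17.3% in the total CASC15 knockdown label comparison, 45.8% in the overexpression comparison (15350 genes each), 75.5% in the untreated long CASC15 knockdown comparison, 58.4% in the interaction and 71.1% in the PDGF-BB comparison (15103 genes each).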

Additional observations from a re-analysis of the deposited data

Results flagged for a closer look

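In groups of 4 libraries, 23 of 170 combinations of gene and group in run 3 had 1 library far from the other 3, against about 1 in 20 that chance gives. In 19 of the 23 it was the P19 library, as the highest. In untreated controls these were Atf4 at 137 CPM (the others at 108 to 112) and Herpud1 at 57.5 (48.5 to 49.5). In controls with angiotensin II they were Aars at 136 (101 to 106) and Hspa5 at 435 (391 to 398). With PDGF-BB they were Phgdh at 77.3 (41.6 to 45.6), Mthfd2 at 44.4 (24.4 to 26.5), Aars at 214 (158 to 165) and Dnajc3 at 284 (220 to 229).

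With long CASC15 knockdown in untreated cells the P19 library stood apart for Atf4 at 116 CPM (the others at 94.5 to 95), Phgdh at 35.9 (25.4 to 26.3), Aldh18a1 at 65.6 (50.5 to 51.7), Gars at 122 (83 to 87.3), Hspa5 at 369 (293 to 302) and Calr at 464 (310 to 315). With the knockdown under angiotensin II it stood apart for Aars at 115 (87.7 to 91.4), Gars at 113 (86.6 to 90.3), Hyou1 at 97.1 (83.3 to 85.3), Pdia6 at 182 (141 to 145) and Manf at 63.6 (41.5 to 42.8).

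The other 4 were Chac1 with PDGF-BB, lowest in P17 at 1.85 CPM (2.84 to 3), Aldh18a1 in angiotensin II controls, highest in P16 at 70.6 (64.4 to 65.1), Dnajb9 in untreated controls, lowest in P18 at 22.2 (26.6 to 27.1), and Sel1l with PDGF-BB, lowest in P16 at 167 (172 to 173).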

How the results depend on the processing

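Depth allowed every one of the 34 genes to be tested. Numbers below count called genes of the 34, with the share of all genes called in parentheses. In the total CASC15 knockdown label comparison, 0 (2.07%) became 2 with no filter (4.44%), 7 with the replicate block (14.4%) and 3 with only the groups compared (7.34%). In the overexpression comparison, 0 (1.65%) became 3 with no filter (4.56%), 19 with the replicate block (17.7%), 1 with DESeq2 (5.26%), 5 without P19 (5.57%) and 22 without P19 with the block (17.1%). For the overexpression control against the knockdown control, 0 (1.18%) became 10 with no filter (3.7%), 4 with the replicate block (2.99%), 2 with DESeq2 (2.26%), 1 without P19 (1.06%) and 3 without P19 with the block (2.77%). For long CASC15 knockdown in untreated cells, 15 (25%) became 24 with the replicate block (40.6%), 25 without P19 (40%) and 25 without P19 with the block (42.2%). Under angiotensin II, 16 (26.7%) became 25 without P19 with the block (42.1%). Requiring an absolute log2 value of at least 1 left 0 in both long CASC15 knockdown comparisons (5.12% untreated, 5.36% under angiotensin II), 4 with PDGF-BB (10.2%) and 1 for P19 (3.73%), which follows from the stricter rule. Leaving out single libraries gave 0 to 6 for overexpression (6 without control replicate 3), 13 to 23 for untreated long CASC15 knockdown (23 without knockdown replicate 4), 24 to 29 with PDGF-BB, 11 to 19 for the knockdown under angiotensin II and 20 to 27 for P19. Calls of single genes that were lost on omission of 1 library are given with the results, and Xbp1 under angiotensin II also lost its call with no filter (adjusted p = 0.0808). Signs reversed in single omissions for values that were not called: Hspa5 to -0.08 and -0.10 in the total CASC15 knockdown label comparison (range -0.10 to 0.12) and to -0.03 and -0.04 with overexpression (range -0.04 to 0.41), and Xbp1 to 0.01 and 0.01 for the overexpression control against the knockdown control (range -0.06 to 0.01) and to 0.02, 0.01 and 0.04 for P19 (range -0.04 to 0.04). The replicate block ended none of the calls of the unblocked fits. Not all calls that it added are named above, such as those of the 3 tRNA synthetase genes with overexpression, which are only counted there. Fewer libraries or genes enter some of these fits, and otherwise the cause was not tested.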

Other observations

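Chaperones of other compartments were measured beside the list. With long CASC15 knockdown in untreated cells, 2 of 11 cytosolic heat shock chaperone genes rose and 0 fell, and with the batch as a block 2 rose and 5 fell (of all genes 12.3% rose and 12.8% fell, and 20% and 20.6% with the block). The 2 that rose were Hspa1a by 1.15 ± 0.208 on the log2 scale (adjusted p = 0.000383 by edgeR's quasi-likelihood test) and its near-identical copy Hspa1b by 0.36 ± 0.125 (adjusted p = 0.0403), where reads shared by the 2 copies make each estimate uncertain. Of 10 mitochondrial chaperone and protease genes, 2 fell and 0 rose (3 and 1 with the block), Hspd1 by 0.41 and Trap1 by 0.32. Among stress sensors and eIF2 control, Eif2s1 fell by 0.39 ± 0.118 while Ern1 rose. In P19 against P16 to P18, 14 of 17 further tRNA synthetase genes rose and 0 fell, 11 of 23 further ATF4 targets rose and 1 fell, 12 of 31 further genes of the endoplasmic reticulum rose and 4 fell, and 7 of 11 cytosolic heat shock chaperone genes rose and 0 fell, while 24.1% of all genes rose and 22.2% fell. Among stress sensors and eIF2 control 6 of 13 rose and 2 fell, Ern1 by 0.42 and Ppp1r15a, a regulatory subunit of the eIF2 phosphatase, by 0.38.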
